A study of Homo sapiens with 3 samples.

Results

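The 10 genes described here encode enzymes that build nucleotides from small precursors. Of these, 7 belong to the purine route (PPAT, GART, PAICS, ADSL, ATIC, IMPDH2 and GMPS) and 3 to the pyrimidine route (CAD, DHODH and UMPS). They were chosen by name, as enzymes of these routes, and found by their Entrez identifiers, 10 of the 25702 genes in the counts, and all 10 were among the 12879 genes tested. Their mRNA was measured in Molm13, an established human line of acute myeloid leukemia with an FLT3 internal tandem duplication, after 6 h with DMSO (the vehicle control), 50 nM pyrvinium or 100 nM pyrvinium, an anthelmintic drug. Each condition had 1 library, so no difference below has a replicate check, and a test on the reads compares libraries, not conditions. All libraries came from asynchronous cells in RPMI medium with fetal bovine serum.

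Purines are assembled on ribose phosphate. PPAT commits phosphoribosyl pyrophosphate to the route, and GART, PAICS, ADSL and ATIC catalyse steps from there to inosine monophosphate (IMP). IMPDH2 and GMPS turn IMP into guanosine monophosphate. ADSL also acts in the branch from IMP to adenosine monophosphate. Pyrimidines are assembled before the sugar is added: CAD, a single polypeptide with several activities, makes dihydroorotate, DHODH oxidizes it to orotate, and UMPS makes uridine monophosphate. DHODH sits in the inner mitochondrial membrane and hands its electrons to ubiquinone, which ties this step to the respiratory chain. Rapidly dividing leukemia cells draw on both routes for RNA and DNA.

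The letters at the starts of some of these genes are shown because PPAT and PAICS are neighbours that start back to back, and because the E-box CACGTG, the letters that MYC and MAX bind, lies at some of the starts and not at others. Sequences are from RefSeq on GRCh38.p14, whose promoter windows run from 250 bases before a start to 50 bases after it and are 300 bases long. Entries for 8 of the 10 genes were matched, all but ADSL and IMPDH2. The E-box was found in 4 of the 8 (PPAT, PAICS, ATIC and DHODH), against 7.26% of 35116 windows and 8.77% of 27305 genes. PPAT and PAICS share the same E-box, which lies 182 bases before the PPAT start and 41 bases after the PAICS start. The stretch between the PPAT and PAICS starts (chr4:56435616-56435751, plus strand) and the upstream bases of CAD (chr2:27217249-27217368, plus strand) have the GC box GGGCGG, or its reverse complement, in capitals. The 30-base windows around an E-box of PPAT and PAICS (chr4:56435780-56435809, minus strand), ATIC (chr2:215312001-215312030, plus strand) and DHODH (chr16:72008573-72008602, plus strand) have the E-box in capitals.
PPAT to PAICS: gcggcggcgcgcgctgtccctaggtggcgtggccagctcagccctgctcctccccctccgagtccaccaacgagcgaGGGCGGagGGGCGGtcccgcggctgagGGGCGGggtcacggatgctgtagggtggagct
CAD upstream: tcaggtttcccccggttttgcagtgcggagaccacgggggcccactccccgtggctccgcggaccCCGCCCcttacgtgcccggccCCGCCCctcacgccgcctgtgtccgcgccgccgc
PPAT E-box: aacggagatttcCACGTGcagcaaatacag
ATIC E-box: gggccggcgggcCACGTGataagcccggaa
DHODH E-box: gccgctactgcgCACGTGcacccaaccaga
Both strands were searched. The GC box was found for 7 of the 8 genes (45.0% of windows, 48.3% of genes), CCAAT for 3 of the 8 (34.6% of windows, 39.7% of genes) and the ATF4-type letters TGATGNAA for 0 of the 8 (3.62% of windows, 4.46% of genes). Matches of different motifs did not overlap in these windows, and 2 of the DHODH GC boxes share letters. A match is a description of letters, and a missing match says only that the letters are not in that window.

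The libraries held 22677038 to 24075123 counted reads, and library sizes were scaled by edgeR's TMM method. The 10 genes together took 0.273% of the counts with DMSO, 0.294% with 50 nM and 0.290% with 100 nM. Of 9 myeloid markers, none was at 0 and 7 had at least 100 counts in each library. Below that were CD14, with 2, 2 and 1 counts with DMSO, 50 nM and 100 nM, and ITGAM, with 58, 57 and 62. Of 21 markers of B, T, erythroid, megakaryocytic, epithelial and fibroblast cells, 9 to 14 were at 0. The list summed to 43 to 63 counts per library, with GATA1, EPCAM and CDH1 at 0 in all 3. In the order DMSO, 50 nM and 100 nM, CD3D had 26, 18 and 13 counts, KRT8 7, 5 and 8, and HBB 0, 16 and 0. The myeloid list summed to 1164 CPM (counts scaled to 1000000 per library) with DMSO, 1232 with 50 nM and 1298 with 100 nM, and without FLT3, chosen after its values were seen, to 892, 834 and 834 CPM. FLT3 and MPO lay above DMSO at 100 nM (0.77 and 0.57 on the log2 scale) and SPI1, CEBPA and CD33 below it (−0.32, −0.12 and −0.09). The part of these markers in the results was not tested.

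The enzymes differed widely in mRNA level. Levels are given as TPM, counts per kilobase of exon scaled to 1000000 over all genes of a library, so that genes of unequal length can be set side by side. With DMSO the order was IMPDH2 (625 TPM), PAICS (442 TPM), ADSL (216 TPM), ATIC (200 TPM), GART (134 TPM), GMPS (127 TPM), CAD (76.8 TPM), PPAT (59.6 TPM), UMPS (29.8 TPM) and DHODH (25.6 TPM). Neighbours in this order did not overlap in their 95% exact counting intervals, which hold no spread between cultures. All 3 pyrimidine enzymes were below 6 of the 7 purine enzymes, and PPAT, which commits the purine route, lay between CAD and UMPS. Summed over enzymes, the purine level was 1803 TPM and the pyrimidine level 132 TPM with DMSO. The sums were 1961 and 156 TPM with 50 nM, and 1916 and 166 TPM with 100 nM.

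**Figure D1:**
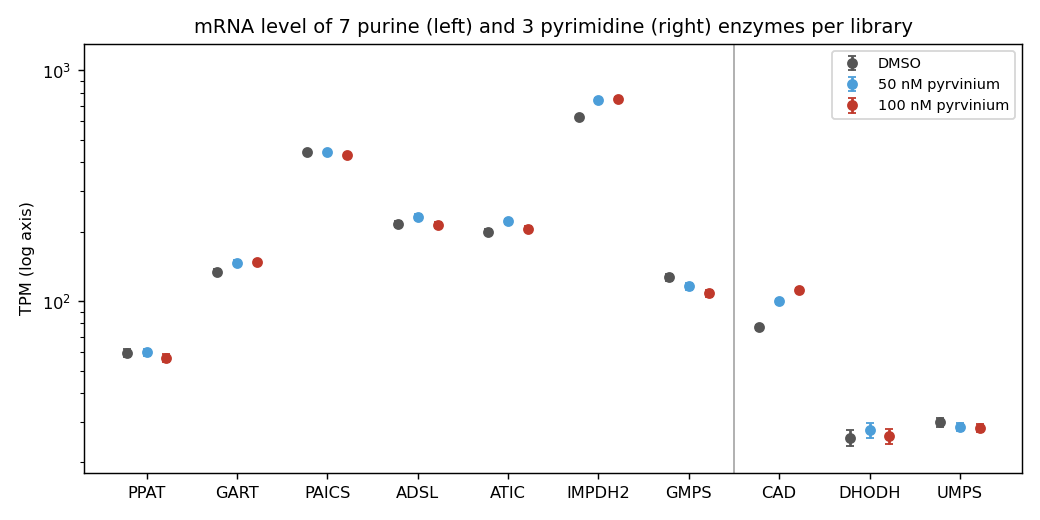
mRNA level of each enzyme in the 3 libraries (y axis: TPM, log axis; grey DMSO, blue 50 nM, red 100 nM; bars are 95% exact counting intervals), with purine enzymes left of the line and pyrimidine enzymes right of it. IMPDH2 is highest at 625 TPM with DMSO and DHODH lowest at 25.6 TPM, and CAD is the enzyme whose points stand furthest apart, from 76.8 TPM with DMSO to 112 TPM with 100 nM.

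The largest difference from DMSO among the 10 enzymes was that of CAD, whose mRNA was higher at both doses. Each of the other 9 enzymes differed by less than 25%. None of the 10 genes was called at 2-fold with an adjusted p of at most 0.05 (exact binomial test on the reads of both libraries, Benjamini-Hochberg adjustment over all genes tested) at either dose. The same call was made for 2.35% of genes tested at 100 nM and 1.06% at 50 nM. At the smaller threshold of a 25% excess of the higher over the lower library, with a 95% counting interval clear of 0, 1 of the 10 genes was higher and 0 lower at 100 nM, against 11.4% of genes higher and 8.89% lower. At 50 nM, 1 of 10 was higher and 0 lower, against 5.75% and 4.78%. The share of enzymes past this threshold is near the background.

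CAD (chr2:27440258-27466654, hg19, 44 exons) starts the pyrimidine route. It had 6513 counts with DMSO, 8202 with 50 nM and 9724 with 100 nM, the DMSO library being lowest and the 100 nM library highest. The log2 fold change was 0.37 at 50 nM (95% counting interval 0.32 to 0.41) and 0.52 at 100 nM (0.48 to 0.57), which is 1.29-fold and 1.44-fold. CAD also differed between the doses, by 0.15 (0.11 to 0.20) for 100 nM against 50 nM. At 100 nM its log2 fold change stood at the 90.8th percentile of all genes tested, and at the 97.7th of deeply counted genes, those averaging 500 counts or more.

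DHODH (chr16:72042643-72058955, hg19, 9 exons), the step linked to the respiratory chain, had 631 counts with DMSO, 660 with 50 nM and 653 with 100 nM. Its log2 fold change was 0.10 at 50 nM (−0.06 to 0.26) and −0.01 at 100 nM (−0.17 to 0.15). The libraries lay close together, and DHODH has the fewest counts of the 10 genes, so that a difference inside these intervals was not detectable at this depth. UMPS (chr3:124449213-124468120, hg19, 7 exons), which closes the route, had 2428 counts with DMSO, 2262 with 50 nM and 2350 with 100 nM. On the log2 scale the difference was −0.07 at 50 nM (−0.15 to 0.02) and −0.10 at 100 nM (−0.19 to −0.02). The DMSO library was the highest for UMPS, and the 50 nM interval spans 0.

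In the purine route the sign of the difference varied between steps. PPAT (chr4:57259528-57301845, hg19, 11 exons), the amidotransferase that opens the route, had 2662 counts with DMSO, 2601 with 50 nM and 2593 with 100 nM. Its log2 fold change was 0.00 at 50 nM (−0.08 to 0.08) and −0.09 at 100 nM (−0.17 to −0.02). The 100 nM library was slightly the lowest after scaling.

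GART (chr21:34876238-34915198, hg19, 23 exons) is trifunctional and catalyses early steps. It had 7077 counts with DMSO, 7521 with 50 nM and 7991 with 100 nM. The log2 differences from DMSO were 0.12 at 50 nM (0.08 to 0.17) and 0.12 at 100 nM (0.07 to 0.16), and between the doses it was 0.00 (−0.05 to 0.04). Both treated libraries were above DMSO and level with each other.

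PAICS (chr4:57301915-57327534, hg19, 11 exons), bifunctional and the neighbour of PPAT, had 18563 counts with DMSO, 18020 with 50 nM and 18434 with 100 nM, the most of any of the 10 genes. PAICS differed from DMSO by −0.01 at 50 nM on the log2 scale (−0.04 to 0.02) and −0.07 at 100 nM (−0.10 to −0.04). PPAT and PAICS, which start on opposite strands with 136 bases between their RefSeq starts on GRCh38.p14, kept a close count ratio within each library. PAICS counts were 6.97 times PPAT counts with DMSO, 6.93 times with 50 nM and 7.11 times with 100 nM. The log2 change of that ratio at 100 nM was 0.03 (−0.06 to 0.11).

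ADSL (chr22:40742504-40762577, hg19, 13 exons) had 4024 counts with DMSO, 4200 with 50 nM and 4070 with 100 nM. Its log2 fold change was 0.10 at 50 nM (0.03 to 0.16) and −0.04 at 100 nM (−0.10 to 0.02). ATIC (chr2:216176679-216214496, hg19, 16 exons), bifunctional and the last step to IMP, had 4968 counts with DMSO, 5345 with 50 nM and 5238 with 100 nM. For ATIC the log2 fold change was 0.14 at 50 nM (0.08 to 0.20) and 0.02 at 100 nM (−0.04 to 0.08). For both enzymes the 50 nM library was the highest, and 100 nM was below 50 nM by 0.14 for ADSL and 0.12 for ATIC.

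At 100 nM the enzymes of the guanosine branch differed most from DMSO among the 7 purine enzymes, and with opposite signs. IMPDH2 (chr3:49061758-49066875, hg19, 14 exons), which oxidizes IMP and is the rate-limiting enzyme of guanine nucleotide synthesis, had 12634 counts with DMSO, 14615 with 50 nM and 15596 with 100 nM. Its log2 fold change was 0.24 at 50 nM (0.21 to 0.28) and 0.25 at 100 nM (0.21 to 0.28). Between the doses it was 0.00 (−0.03 to 0.04), so the treated libraries were level with each other after scaling. GMPS (chr3:155588325-155655521, hg19, 16 exons), the next enzyme, had 3712 counts with DMSO, 3292 with 50 nM and 3233 with 100 nM. GMPS differed from DMSO by −0.14 at 50 nM on the log2 scale (−0.21 to −0.07) and −0.26 at 100 nM (−0.32 to −0.19). Both treated libraries were above DMSO for IMPDH2 and below it for GMPS. The count ratio of IMPDH2 to GMPS within a library, a pair chosen after its values were seen, went from 3.40 with DMSO to 4.44 with 50 nM and 4.82 with 100 nM.

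**Figure D2:**
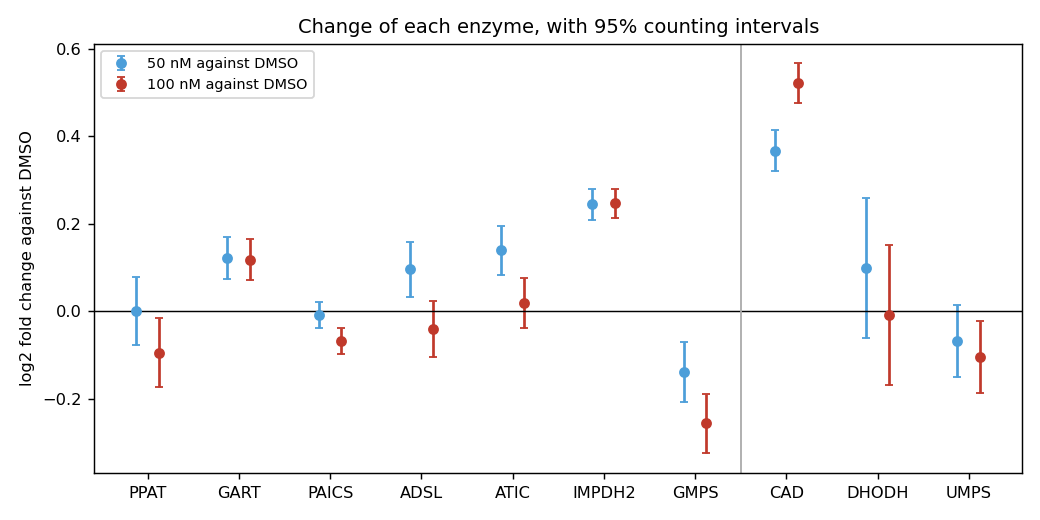
Log2 fold change against DMSO (y axis) of each enzyme at 50 nM (blue) and 100 nM (red), with 95% counting intervals and 1 library per condition. CAD is highest at 0.37 and 0.52, GMPS is lowest at −0.14 and −0.26, and IMPDH2 lies at 0.24 and 0.25 while DHODH straddles 0.

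Counted by intervals, at 100 nM 3 of the 10 genes lay above 0 (GART, IMPDH2, CAD), 4 below (PPAT, PAICS, GMPS, UMPS) and 3 spanned it. Of all genes tested, 24.0% lay above and 25.3% below. Of the 7087 deeply counted genes, to which all 10 enzymes belong, 29.1% lay above and 35.2% below. The shares of the enzymes are near these. At 50 nM, 5 of 10 lay above 0 and 1 below, against 18.6% and 18.5% of all genes tested and 24.8% and 25.3% of deeply counted genes. For 100 nM against 50 nM, 1 of 10 lay above and 5 below, against 12.5% and 14.3% of all genes tested and 15.9% and 21.6% of deeply counted genes. The last of these comparisons has the 50 nM library in common with the one before it, so a level that is high in that library alone moves both.

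The median log2 fold change of the 7 purine enzymes was 0.10 at 50 nM and −0.04 at 100 nM, and that of the 3 pyrimidine enzymes 0.10 and −0.01. The median of all genes tested was 0.00 at both doses. The pyrimidine median is that of 3 genes and is the value of DHODH. The means at 100 nM were −0.01 for the purine and 0.14 for the pyrimidine enzymes, so that the sign of the pyrimidine summary turns with the choice of mean or median. In a linear trend over dose (edgeR quasi-likelihood test with 1 residual degree of freedom, where the spread is the departure from a line over the 3 libraries and not between replicates), CAD (adjusted p = 0.00011) and IMPDH2 (adjusted p = 0.0394) rose and GMPS (adjusted p = 0.0122) fell. The other 7 enzymes missed the threshold. For IMPDH2 the treated libraries were level with each other (0.00, −0.03 to 0.04), so IMPDH2 did not rise from 50 nM to 100 nM. The same test called 10.1% of genes tested higher and 10.4% lower.

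Ratios of counts within a library need no scaling between libraries. Purine counts were 5.60 times pyrimidine counts with DMSO, 4.998 times with 50 nM and 4.49 times with 100 nM. The log2 change of this ratio was −0.17 at 50 nM (95% exact interval −0.21 to −0.12) and −0.32 at 100 nM (−0.36 to −0.28), which counting error alone does not span. CAD made up 68.0% of pyrimidine counts with DMSO, 73.7% with 50 nM and 76.4% with 100 nM.

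Against each pyrimidine enzyme alone, the purine sum behaved differently. At 100 nM the log2 change of the ratio was −0.49 to CAD (−0.54 to −0.44), 0.14 to UMPS (0.05 to 0.22) and 0.04 to DHODH (−0.12 to 0.20). The pooled ratio had the sign of the ratio to CAD, and the ratio to UMPS had the opposite sign. The purine sum is itself weighted toward its most counted enzymes. PAICS and IMPDH2 had 18563 and 12634 of its 53640 counts with DMSO, and 18434 and 15596 of 57155 with 100 nM. By sign, 3 of the 7 purine enzymes were higher at 100 nM and 4 lower. DHODH against the sum of CAD and UMPS had a log2 change of −0.38 at 100 nM (−0.55 to −0.22), while against UMPS alone it was 0.10 (−0.08 to 0.28).

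**Figure D3:**
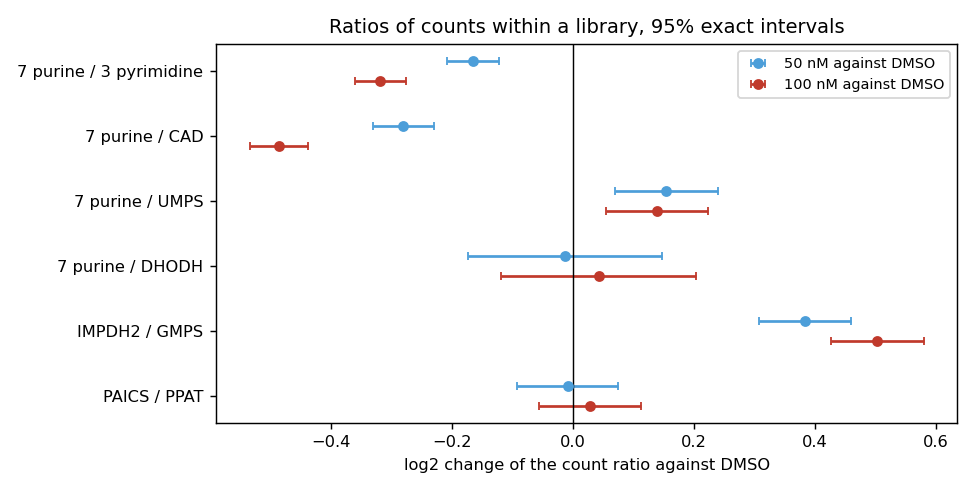
Log2 change against DMSO (x axis) of count ratios within a library, at 50 nM (blue) and 100 nM (red), with 95% exact intervals. The ratio of the 7 purine to the 3 pyrimidine enzymes lies at −0.17 and −0.32, purine to CAD further left at −0.49 at 100 nM, purine to UMPS to the right at 0.14, and PAICS to PPAT at about 0.

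MYC, a transcription factor with known targets among nucleotide synthesis genes, had 21175 counts with DMSO, 28215 with 50 nM and 33596 with 100 nM. On the log2 scale it was higher by 0.61 (0.58 to 0.63) at 100 nM. ATF4, the transcription factor of the integrated stress response, had 12788 counts with DMSO, 16646 with 50 nM and 18669 with 100 nM, and was higher by 0.49 (0.46 to 0.52) at 100 nM. MAX, the partner of MYC, differed by −0.12 (−0.22 to −0.02) at 100 nM, from 1554, 1451 and 1489 counts in the same order. MYC and ATF4 had more counts in both treated libraries than with DMSO. Their part in the CAD result was not tested.

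The remaining genes of the nucleotide pathways gave the following, by lists of which the genes with the largest differences and at least 100 counts are named. Of 6 other genes of the purine route, 4 had intervals below 0 at 100 nM and 1 above, with a median of −0.18. By the sign of the fold change alone, 4 were lower and 2 higher. Of all genes tested, 25.3% had intervals below 0 and 24.0% above, and of deeply counted genes 35.2% and 29.1%. The 4 with intervals below 0 include PRPS2 and PRPS1, which supply phosphoribosyl pyrophosphate, at −0.29 and −0.27. IMPDH1, the second form of IMP dehydrogenase, was also below 0, at −0.20. The 1 above was PFAS, named after its values were seen, at 0.11 (0.05 to 0.17). IMPDH1 had 1677, 1612 and 1521 counts, so that the IMPDH2 to IMPDH1 ratio went from 7.53 to 9.07 and 10.3. CTPS1, which makes CTP from UTP, was at 0.19 (0.13 to 0.24), and CTPS2 was listed at 0 counts in all 3 libraries.

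Deoxynucleotide synthesis lay mainly below DMSO, with the intervals of 6 of 8 genes below 0 and 1 above. The median was −0.22 at 100 nM. Intervals below 0 were found for 25.3% of all genes tested and 35.2% of deeply counted genes. RRM2, a subunit of ribonucleotide reductase, had 9704 counts with DMSO, 7234 with 50 nM and 6948 with 100 nM, a log2 fold change of −0.54 (−0.58 to −0.49) at 100 nM. RRM1, its partner subunit, was at −0.30 and TYMS, thymidylate synthase, at −0.28. RRM2B, the other small subunit of the reductase and named after its values were seen, was at 0.06, with an interval that spans 0.

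The folate genes had the highest median of these lists, 0.29 at 100 nM, with the intervals of 5 of 8 above 0 and 0 below. By the sign of the fold change alone, 5 were higher and 3 lower. Of all genes tested, 24.0% had intervals above 0, and of deeply counted genes 29.1%. ALDH1L2 had 2615 counts with DMSO, 3722 with 50 nM and 5221 with 100 nM, a log2 fold change of 0.94 (0.87 to 1.01). MTHFD2 was at 0.73 and MTHFD1L at 0.54. These 3 encode mitochondrial enzymes of folate metabolism. SHMT2, also mitochondrial, was at 0.48, and the cytosolic MTHFD1 and SHMT1 were at −0.03 and −0.09, with intervals that span 0. SHMT2, MTHFD1 and SHMT1 were named after their values were seen.

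In salvage, 2 of 14 tested genes had intervals above 0 and 6 below, with a median of −0.02. Of all genes tested, 24.0% lay above and 25.3% below, and of deeply counted genes 29.1% and 35.2%. TK2, the mitochondrial thymidine kinase, was at 0.70, PNP at −0.37 and TYMP at −0.32. Of 12 nucleotide kinases tested, 1 had its interval above 0 and 4 below. AK4 was at −0.64, NME4 at −0.46 and NME6 at −0.25. Of 13 genes of nucleotide breakdown tested, 3 had intervals above 0 and 1 below, while 6 fold changes were higher and 7 lower. UPB1, of pyrimidine breakdown, was the only gene of the nucleotide lists called at 2-fold. It had 24, 41 and 58 counts and a log2 fold change of 1.20 (0.51 to 1.97) at 100 nM. At that dose 2.35% of all genes tested were called. NT5C was at 0.29 and NUDT1 at −0.17.

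DHODH was also set beside a list of other dehydrogenases that reduce ubiquinone, which leaves out the subunits of complex I. Of these 9 genes, 6 were tested, and their log2 fold changes at 100 nM ran from −0.12 (SQRDL) to 0.01 (SDHA), with a median of −0.04. SDHB, a subunit of succinate dehydrogenase, was at −0.07 and ETFDH, which passes on electrons from fatty acid oxidation, at −0.07. The other 3 (GPD2, PRODH and CHDH) had 0 to 2 counts in each library. DHODH, at −0.01, lay between the lowest and the highest of these 6.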

How the data were processed

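The authors made strand-specific TruSeq mRNA libraries of Molm13 cells, used Rsubread for alignment to hg19, and deposited read counts per Entrez gene identifier as whole numbers that were not normalized. Strand use in the counting is not given in the sources used here. A deposited table of the authors' EBSeq comparisons (posterior probabilities and fold changes) was not used. One protocol text gives the higher dose in M, and the paper's 100 nM was taken. Symbols were matched for 23696 of 25702 identifiers.

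TMM scaling came from edgeR 4.0.16 in R 4.3.3. A gene was tested if any library held 10 counts or more. Pairs of libraries were compared by a two-sided exact binomial test on the reads (scipy 1.17.1), Benjamini-Hochberg adjusted over all genes tested, and called at 2-fold and an adjusted p up to 0.05. Log2 fold changes had 0.5 counts added. Intervals of the count ratio are 95% Clopper-Pearson, and those of ratios within a library are conditional exact intervals of an odds ratio. Both cover counting error only. The procedure was tested on simulated counts without variation between cultures, in which all changes put in were above 2-fold. That check therefore does not bear on the missing replicates.

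All 10 enzymes are named. From each other list, genes called at 2-fold and the 3 with the largest differences at 100 nM among genes with at least 100 counts are named, and any further gene was named after its values were seen. A gene that this rule would name in the breakdown list is not reported here. HBB, a marker of erythroid cells, was called at 50 nM with 16 counts in that library and 0 in the others. Members and lists were chosen with earlier results of these data known, and the ratios of IMPDH2 to GMPS, IMPDH2 to IMPDH1 and PAICS to PPAT after their values were seen.

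Alternatives were size factors from DESeq2 1.42.0, scaling by total counts, TMM computed without mitochondrial genes, 5 counts added, other count filters, a threshold of 1.5-fold, edgeR's exact test at assumed coefficients of variation of 0.1 and 0.2, a linear dose trend, sums per kilobase, extended lists, means for medians, and single pyrimidine enzymes left out or used alone.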

Additional observations from a re-analysis of the deposited data

How the results depend on the processing

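Across the other scalings and with 5 counts added, 118 of 120 values of single enzymes kept their sign. The other 2, PPAT at 50 nM against DMSO and GART at 100 nM against 50 nM, are within 0.01 of 0 and changed sign with total counts. No enzyme's interval changed its side of 0 or came to span it under the other scalings (0 of 90). The number of enzymes called at 2-fold stayed at 0 at both doses under each scaling, filter and assumed coefficient of variation and at 1.5-fold. The largest fold was that of CAD, 1.44 at 100 nM and below both thresholds. Filters and assumed coefficients of variation therefore could not have changed this number. The mean in place of the median at 100 nM gave −0.01 for the purine and 0.14 for the pyrimidine enzymes. The log2 change of the purine to pyrimidine ratio at 100 nM was −0.32 with summed counts and −0.24 with counts per kilobase. Without CAD, an alternative chosen after seeing the data, it was 0.12. The log2 change of DHODH against CAD and UMPS was −0.38, and against UMPS alone 0.10. The cause was not tested. No paired analysis was possible because each condition has 1 library, and for the same reason no library could be left out. Depth limits DHODH most, and the intervals hold counting error only. No difference given here, that of CAD included, can therefore be told apart from variation between cultures.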
